A study of Mus musculus with 4 samples.

Results

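B cells made up 589 of the 18110 cell barcodes that passed filters in 2 single-cell RNA libraries prepared from visceral adipose tissue regulatory T (Treg) cells, out of 20492 barcodes in all. A barcode stands for 1 droplet and usually for 1 cell. The B cells were chosen by their own RNA: at least 2 of the markers Cd79a, Ms4a1, Ebf1, Bank1, Cd79b and Ly6d had to be detected, with Cd79a at 2 or more unique molecular identifiers (UMIs, each counting 1 captured RNA molecule). Passing barcodes had 500 or more genes, under 10% mitochondrial UMIs, and at least 90% of their hashtag counts from 1 of the 2 hashtags of their library, with 10 or more such counts. The sort that fed both libraries was a gate for live cells positive for CD3, CD4 and Foxp3, so these cells lay outside the population it was meant to select.

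The Srebf2 library pooled, at equal numbers, cells from 25-week-old male Foxp3YFP-cre mice with wild-type Srebf2 alleles (Srebf2WT/WT, called WT here, 4 mice) and from mice with floxed alleles (Srebf2flox/flox, called KO here, 4 mice). Cre in these mice is driven from the Foxp3 locus, which marks Treg cells, and both groups carry it. The diet library pooled cells from male mice carrying the Foxp3 Thy1.1 and Pparg TdT reporter alleles, 23 to 27 weeks old, that ate normal chow (NCD, 5 mice) or a high-fat diet (HFD, 5 mice) for 22 weeks. Each condition was 1 pool of mice, so no difference below has a replicate check, no test was possible, and the 95% intervals cover counting error only.

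B cells make antibody and present antigen on MHC class II molecules. Naive follicular B cells recirculate between blood and lymphoid organs, whereas B1 cells live largely in body cavities and in the fat lining them, carry a restricted set of receptors and secrete natural IgM. Antibody-secreting plasma cells shut down much of the B cell programme and devote their secretory pathway to immunoglobulin, with Jchain linking the units of IgM and IgA.

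The condition of each B cell was read from a hashtag oligonucleotide attached to its surface before pooling, and all shares by condition rest on these tags. The 4 tags are shown because they are the only link between a cell and its mice. The capitals mark the whole counted tag, written 5′ to 3′.
Hashtag 1, WT: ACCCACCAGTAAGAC
Hashtag 2, KO: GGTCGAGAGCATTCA
Hashtag 3, NCD: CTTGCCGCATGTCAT
Hashtag 4, HFD: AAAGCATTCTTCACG

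B cells were most frequent in NCD. They numbered 316 of 5517 barcodes there, a share of 5.73% (exact binomial interval 5.13 to 6.37). In HFD they were 122 of 4808, or 2.54% (2.11 to 3.02). In WT they were 94 of 3676, or 2.56% (2.07 to 3.12), and in KO 57 of 4109, or 1.39% (1.05 to 1.79). Within each library the intervals of the 2 conditions did not overlap. The sort gate can set these shares, since it was built to leave B cells out, and the 2 libraries came from different strains and runs.

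The shares moved closer when B cells carrying T cell RNA were set aside. B cells with 0 UMIs of Cd3d, Cd3e, Cd3g and Foxp3 were 107 in NCD, which is 1.94% of barcodes (1.59 to 2.34), and 63 in HFD, which is 1.31% (1.01 to 1.67). They were 38 in WT, 1.03% (0.733 to 1.42), and 29 in KO, 0.706% (0.473 to 1.01). Among these cells the intervals of the 2 conditions overlapped in both libraries, while NCD still had the highest value of the 4. The filter kept 33.9% of the B cells of NCD and 51.6% of those of HFD. It removes deeper cells more readily, and B cells had a median of 7747 UMIs in NCD against 4455.5 in HFD. Fewer cells also widen the intervals, and the part of depth in the closer shares was not tested.

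**Figure D1:**
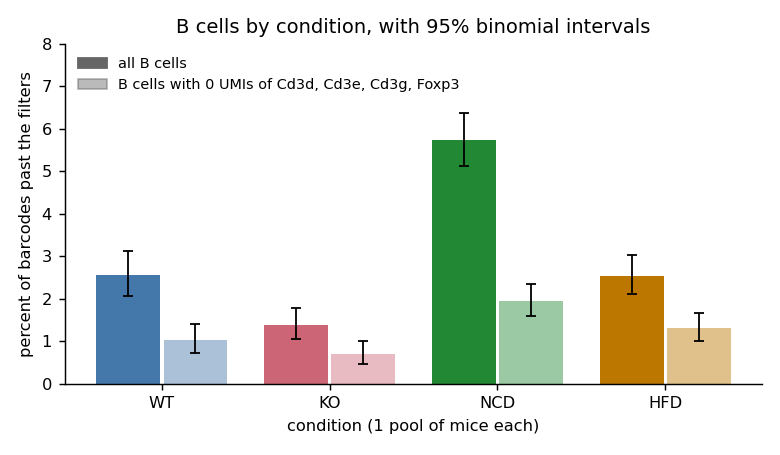
The vertical axis is the percent of barcodes past the filters, the horizontal axis the 4 conditions, dark bars all B cells and pale bars those with 0 T cell UMIs, with exact binomial 95% intervals. Among all B cells NCD stands at 5.73% against 2.54% in HFD, and the pale bars of NCD and HFD, at 1.94% and 1.31%, have overlapping intervals.

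The barcodes carried the broader B cell programme as well as the markers that chose them, and these levels are a description, since the cells were selected on B cell RNA. Cd79a, the Ig-alpha signalling chain of the B cell receptor complex (chromosome 7, 24897497 to 24901858, mouse build GRCm38.p6), had 2005, 2378, 1689 and 2402 copies per 1000000 summed UMIs (CPM) in WT, KO, NCD and HFD, in that order. Ms4a1, which encodes CD20 (chromosome 19, 11249679 to 11266149), had a UMI in 89.4%, 93.0%, 88.6% and 87.7% of B cells respectively, against 0.04 to 0.30% of barcodes with 0 Cd79a UMIs. Pax5, the factor that fixes B cell identity and was not used in the choice, stood at 158, 146, 90.1 and 153 CPM. All 6 choosing markers were detected in 70 of 94 WT cells, 47 of 57 KO cells, 242 of 316 NCD cells and 96 of 122 HFD cells. Over all B cells, NCD had the lowest level of Cd79a and Pax5. Its 31 cells with 10 or more Jchain UMIs, described below, weigh on that order. They held 706550 of the 2907347 UMIs of NCD B cells, with Cd79a at 379 CPM.

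Beyond the choosing markers, the genes with the highest ratio of B cells over other barcodes in every condition were B lineage genes. They included Fcmr (the IgM Fc receptor), Blk (a receptor-proximal kinase), Mzb1 (a chaperone for IgM), Pou2af1 (a co-activator of immunoglobulin transcription), Siglecg (an inhibitory receptor), Tnfrsf13c (the BAFF receptor), Fcrla, H2-DMb2 and Mef2c. Few barcodes lay at the edge of the rule. Barcodes with 1 Cd79a UMI and at least 2 markers, just outside, numbered 2 and 0 for WT and KO, and 8 and 5 for NCD and HFD. Barcodes with exactly 2 Cd79a UMIs and 2 or more markers, just inside, numbered 0, 2, 7 and 2. One further NCD barcode had 2 or more Cd79a UMIs and no other marker, and was left out. No barcode sequence that occurred in both libraries (135 in all) was a B cell in both.

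Many of the B cells also held T cell RNA. Cd3e, a chain of the T cell receptor complex, had a UMI in 51.1% of WT B cells (40.5 to 61.5), 42.1% of KO ones (29.1 to 55.9), 61.7% of NCD ones (56.1 to 67.1) and 43.4% of HFD ones (34.5 to 52.7). Foxp3, the factor that defines Treg cells, had a UMI in 26.6%, 29.8%, 33.5% and 20.5%. Among Foxp3-positive barcodes the Cd3e share was 94.0%, 94.4%, 95.5% and 94.7%.

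These shares depended on depth, and macrophages, which should lack Cd3e, also had Cd3e UMIs. B cells were deep, with median totals of 6255.5, 6639, 7747 and 4455.5 UMIs in that order, against 3602, 3643, 4038.5 and 3220 in barcodes with 0 Cd79a UMIs. When every cell was thinned to 2000 UMIs, the mean expected share with a Cd3e UMI, computed over all possible draws, was 30.9%, 26.7%, 35.7% and 30.1% of B cells, after 2, 0, 5 and 8 shallower cells were left out. Macrophage barcodes, of which there were 8, 15, 44 and 21, had a Cd3e UMI in 25.0%, 46.7%, 79.5% and 33.3% unthinned, at median totals of 5043.5, 4630, 11777.5 and 29710 UMIs. Thinned, their expected Cd3e shares were 22.5%, 46.0%, 37.8% and 20.4%, and only 6 WT and 13 KO macrophages were deep enough. For Cd3g the thinned shares of B cells were 29.0%, 20.3%, 29.6% and 30.4%, against 31.7%, 42.5%, 31.5% and 21.6% in macrophages. For Cd3d they were 20.5%, 15.6%, 22.0% and 24.2%, against 19.9%, 28.4%, 24.1% and 20.8%. B cells were thus below macrophages for all 3 genes in KO and NCD, above for all 3 in HFD, and on both sides in WT. No Cd3 share is read as expression by B cells. The order of NCD over HFD is not read as a difference.

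The T cell RNA was unevenly spread over the B cells. Cells with 1 or 2 UMIs over Cd3d, Cd3e, Cd3g and Foxp3 were few, at 5, 4, 10 and 3. Cells with 3 or more were 51, 24, 199 and 56, which is 54.3%, 42.1%, 63.0% and 45.9% of the B cells. Their median totals were 6849, 9050.5, 9269 and 5964.5 UMIs, against 3912.5, 4728, 4091 and 2929 in B cells with none. Their median hashtag counts were 2851, 4621.5, 625 and 598, against 1240.5, 1702, 208 and 217 in B cells with none. The Foxp3-positive barcodes had median hashtag counts of 2081.5, 3303, 444 and 425, which lay between the 2 kinds of B cell in each condition. Whether such barcodes hold a B cell and a T cell was not tested. No doublet caller was run, and hashtags of 1 condition cannot show a pair of cells from that condition.

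**Figure D2:**
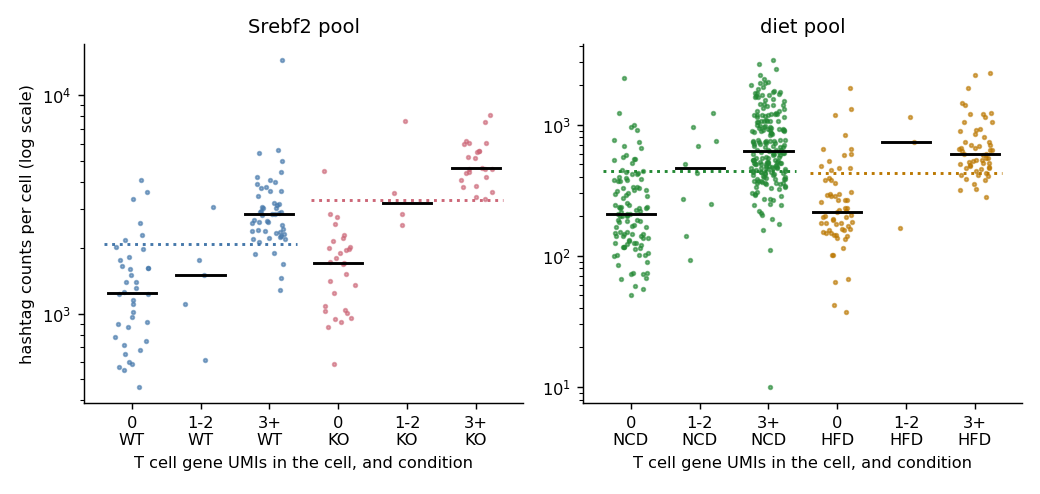
Each point is 1 B cell; the vertical axis is its hashtag count on a log scale and the horizontal axis groups cells by condition and by UMIs over Cd3d, Cd3e, Cd3g and Foxp3, with black bars at group medians and dotted lines at the median of Foxp3-positive barcodes. Cells with 3 or more T cell UMIs have higher medians than cells with 0 in each condition, for example 625 against 208 in NCD.

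Markers of macrophages were near or below their level in other barcodes. The summed macrophage list in B cells was 153, 158, 106 and 248 CPM, against 142, 237, 416 and 775 CPM in barcodes with 0 Cd79a UMIs, and Lyz2, Csf1r and the C1q genes were at 0 in WT and KO. T cell and Treg markers were not low. The summed T cell list stood at 2249, 1664, 1833 and 2299 CPM in all B cells, at 548, 365, 312 and 381 CPM in B cells with 0 T cell UMIs, and at 5662, 6087, 4913 and 6434 CPM in barcodes with 0 Cd79a UMIs. The summed Treg list stood at 2686, 1815, 3253 and 2177 CPM, at 774, 512, 535 and 420 CPM, and at 9455, 8807, 9369 and 4921 CPM. For that reason the comparisons below are given for all B cells and for those with 0 T cell UMIs.

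At a minimum of 2 UMIs, immunoglobulin RNA placed most B cells as unswitched. Ighm or Ighd, the heavy chains of IgM and IgD, led the heavy chain UMIs in 92.6% of WT B cells, 96.5% of KO, 93.7% of NCD and 83.6% of HFD. A leading gene needed 2 UMIs, and the heavy chain could not be assigned in 7, 2, 14 and 18 cells. Switched heavy chains led in few cells, with IgG in 4 of NCD and 2 of HFD and IgA in 2 of NCD. At a minimum of 5 UMIs, Ighm or Ighd led in 58.5%, 59.6%, 70.9% and 38.5% of WT, KO, NCD and HFD B cells. The heavy chain was then unassigned in 39, 23, 88 and 74 cells. Kappa led the light chains in 90.4%, 86.0%, 88.9% and 87.7%, and lambda in 8.5%, 12.3%, 11.1% and 9.8%. A single Ighm UMI was no mark of a B cell here, because 20.9%, 29.4%, 18.3% and 50.5% of barcodes with 0 Cd79a UMIs held one.

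The heavy chain variable segments were diverse, with a few frequent ones. The leading segment took 45 and 35 different identities in WT and KO, and 70 and 57 in NCD and HFD. Ighv11-2 led in 35 of 305 NCD cells with a leading segment, a share of 11.5% (8.12 to 15.6), and was the most frequent segment there. Ighv1-26 led in 10 of 111 HFD cells, 9.01% (4.41 to 15.9), an interval that overlaps that of Ighv11-2 in NCD, and Ighv6-3 in 4 of 54 KO cells, 7.41%. Outside NCD, Ighv11-2 led in 2 of 111 HFD cells, 1.80% (0.219 to 6.36), and in 3 of 54 KO cells, 5.56%. In WT it led in 0 of 87 cells, with an exact interval that reaches 4.15%. The light chain segment Igkv14-126 led in 34 of the NCD cells led by Ighv11-2, in 3 in KO and in 2 in HFD. Ighv12-3 led in 10 NCD cells, 3.28%, of which 8 had Igkv4-91, in 2 HFD cells and in 3 WT cells. Both heavy and light pairs are known from B1 cells that bind phosphatidylcholine. Ighv11-2 and Ighv12-3 were singled out after their values were seen.

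Either segment led in 45 NCD cells, 14.8% (11 to 19.2), against 4 HFD cells, 3.60% (0.990 to 8.97). Without NCD cells holding T cell UMIs the NCD share was 9 of 103, or 8.74%, and among such HFD cells it was 1 of 60, counts too small to separate the diets. Those 45 NCD cells, with 683532 UMIs in all, are compared in CPM with the 260 NCD cells led by another segment, with 2155586 UMIs. Fcer2a, the low-affinity IgE receptor CD23 of follicular B cells, stood at 2.93 CPM (1 cell with a UMI) against 64.9 CPM. Ighd was at 41.0 against 177 CPM, and Ccr7 (a lymphoid homing receptor) at 39.5 against 161. Cr2, complement receptor CD21, was at 0 against 25.1 CPM, while Fcmr was at 247 (211 to 287) against 274 CPM (252 to 297), with overlapping intervals. Of the B1 list, Cd9, a tetraspanin found on B1 cells, stood at 81.9 CPM (61.9 to 106) against 33.9 CPM (26.5 to 42.6). Zbtb32 at 70.2 against 44.5, Bhlhe41 at 30.7 against 25.5 and Plscr1 at 51.2 against 39.4 CPM were higher with overlapping intervals. Cd5 at 86.3 against 118, Spn at 26.3 against 42.7, Itgam at 7.31 against 22.7 and Tox at 51.2 against 70.5 CPM were lower. Most follicular genes named here were thus lower in the cells led by either segment, and the B1 list went both ways. With all 45 cells counted, Cd9 was the B1 member whose intervals did not overlap on the higher side. Of the 45 cells, 15 had 10 or more Jchain UMIs, and such cells weigh on these CPM. The 31 NCD cells of that kind held 706550 UMIs, with Zbtb32 at 1.42, Plscr1 at 14.2, Cd9 at 35.4, Fcmr at 26.9 and Fcer2a at 0 CPM. In UMIs, these 31 cells held 1 of Zbtb32, 10 of Plscr1 and 19 of Fcmr. The 45 cells held 48, 35 and 169. Jchain-rich cells thus lower the CPM of these 3 genes in the 45 cells. The comparison was not made without them, and the overlaps given for Zbtb32, Plscr1 and Fcmr need not hold there.

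Cells rich in Jchain RNA were found mainly in NCD. B cells with 10 or more Jchain UMIs were 31 in NCD, 9.81% of its B cells (6.76 to 13.6), 1 in HFD, 0.820% (0.0208 to 4.48), 2 in WT, 2.13%, and 2 in KO, 3.51%. The 31 NCD cells had a median total of 22604 UMIs, and antigen receptor genes made up 53.5% of their UMIs. Their Cd79a stood at 379 CPM, against 2177 CPM in NCD cells led by another segment than Ighv11-2 or Ighv12-3 with under 10 Jchain UMIs. The rule asks for 2 Cd79a UMIs, so shallower cells of this kind can be missed. All B cells had a median of 7747 UMIs in NCD and 4455.5 in HFD, and the part of depth in these shares was not tested. Xbp1, the factor that drives the secretory programme, and Mzb1 were detected in all 31, Derl3, of endoplasmic reticulum quality control, in 28 and Ms4a1 in 16. Ighv11-2 or Ighv12-3 led in 15 of these 31, so the 2 groups of NCD cells overlapped. Because these few cells hold many UMIs, they weigh on every CPM of NCD, and the diet comparison is given with and without them.

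**Figure D3:**
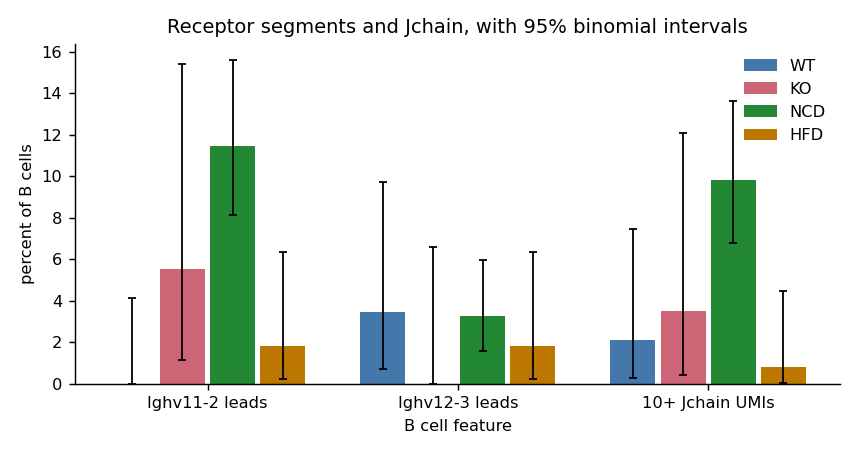
The vertical axis is the percent of B cells (of those with a leading segment for the 2 segments), the horizontal axis the 3 features, bars the 4 conditions and lines exact binomial 95% intervals. NCD is highest for Ighv11-2 at 11.5% and for 10 or more Jchain UMIs at 9.81%, while Ighv12-3 shows overlapping intervals in all 4 conditions.

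Between the diets, B cells of HFD had higher levels of follicular and MHC class II genes and lower levels of plasma cell and several B1 genes than B cells of NCD. Of 7064 genes with 50 or more UMIs over both diets, 294 were at least 2-fold higher in HFD, which is 4.16% of the genes, and 286 were at least 2-fold lower, 4.05%. For lists, where 20 UMIs sufficed, the background was 584 higher (6.17%) and 563 lower (5.95%) of 9467 genes. The median log2 ratio over those genes was 0.19. The calls and list counts below are taken from a ratio of 0, and counts relative to the median of the genes at 50 UMIs (0.20) follow where they differ. The split of higher against lower moved with the scaling: scaled by the median ratio it was 151 higher and 389 lower, and as a mean over cells 232 and 371. Without the cells of 10 or more Jchain UMIs it was 152 and 258, with a median of 0.04. With cells holding T cell UMIs also removed, 96 NCD and 63 HFD cells remained, and the background at 20 UMIs was 305 higher (6.69%) and 245 lower (5.37%) of 4562 genes, with a median of 0.09. These last cells are called the restricted B cells below.

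Of the 8 naive follicular genes, 4 were at least 2-fold higher in HFD and 0 lower, with a median log2 ratio of 0.97. Fcer2a stood at 230 CPM in HFD against 52.6 CPM in NCD, a log2 ratio of 2.13 (1.78 to 2.47). In the restricted B cells it stood at 128 and 386 CPM, NCD first, a log2 ratio of 1.59 (1.09 to 2.11). Ccr7 stood at 135 and 413 CPM (NCD, then HFD), a log2 ratio of 1.62 (1.38 to 1.85), and kept 1.29 (0.93 to 1.65) in the restricted B cells. Cr2 (1.32), Fcmr (1.00) and Ighd (0.79) were higher in all B cells, but had log2 ratios of 0.53, 0.56 and 0.06 in the restricted ones. Cxcr5, the follicle homing receptor, was at 0.06 and Klf2 at -0.12. Relative to the median of all genes, 3 were past 2-fold, without Fcmr. The list as a whole went from 4 of 8 to 2 of 8 genes at least 2-fold higher, and its median from 0.97 to 0.36, when the cells were restricted.

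Among the 10 MHC class II genes, 3 were at least 2-fold higher and 0 lower, with a median of 0.69, and in the restricted B cells 2 were higher with a median of 0.40. H2-DMb1, which helps to load peptides, had a log2 ratio of 1.44 (0.91 to 1.94) and of 1.34 in the restricted B cells. Ciita, the master activator of the class II genes, had 1.23 and 1.47 (0.57 to 2.40). H2-Oa, which modulates peptide loading, had 1.21 and 0.78. The surface chains moved less, with H2-Ab1 at 0.68 and 0.59, H2-Aa at 0.69 and 0.37, H2-Eb1 at 0.69 and 0.36, and the invariant chain Cd74 at 0.57 and 0.37. H2-Eb2, which is not in the list, stood at 1.96 and 1.67. The ratios of Ciita and H2-DMb1 stayed above 1 in the restricted B cells, and those of the surface chains did not reach it in either set.

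Receptor and co-stimulation genes with a ratio above 1 included a few that held in the restricted B cells. Of 20 receptor complex and signalling genes, 4 were at least 2-fold higher and 0 lower, and of 12 survival and co-stimulation receptors 4 were higher and 1 lower. Relative to the median of all genes these were 3 higher and 0 lower, and 3 higher and 1 lower. Cd83, an activation marker that stabilises class II at the surface, stood at 436 CPM in HFD against 161 CPM in NCD, a log2 ratio of 1.44 (1.21 to 1.66), and at 1.40 (1.04 to 1.77) in the restricted B cells. Cd72, a receptor that restrains signalling, had 1.55 and 1.36, and Vpreb3 had 2.01 (1.59 to 2.44) and 1.74 (1.14 to 2.36). Cd86, a co-stimulatory ligand, had 1.15 and 0.77. Of 16 B cell transcription factors 2 were at least 2-fold higher, Bach2, which holds back plasma cell differentiation, at 1.52 and 0.86, and Mef2c at 1.07 and 0.86, of which Bach2 alone was past 2-fold relative to the median of all genes. Cd79b was at 0.09 in all B cells and -0.31 in the restricted ones, and Cd79a at 0.51 and 0.17. Srebf2 was at 0.03, and of 16 cholesterol synthesis genes 0 were at least 2-fold higher and 1 lower (2 relative to the median of all genes), with a median of 0.32.

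Of the 9 plasma cell genes, 7 were at least 2-fold lower in HFD (8 relative to the median of all genes) with a median of -1.32, and in B cells with under 10 Jchain UMIs 0 of the 5 that could be compared were. Jchain itself had a log2 ratio of -4.70 (-4.90 to -4.52), Xbp1 -1.93 (-2.37 to -1.54) and Mzb1 -1.32. In the restricted B cells Xbp1 stood at 0.38 and Mzb1 at -0.68. Tnfrsf17, the plasma cell receptor BCMA, had 94 UMIs in NCD and 0 in HFD. Set against 3 counts over the condition, that is a log2 ratio of -2.72 or lower. The lower plasma cell list of HFD was not seen without the cells of 10 or more Jchain UMIs. Those cells were chosen by Jchain, itself a member of the list. Their removal takes plasma cell RNA out by design, so no conclusion is drawn from it.

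Of the 8 B1 genes, 3 were at least 2-fold lower and 1 higher, with a median of -0.64, and relative to the median of all genes 4 were lower and 0 higher. Zbtb32, a repressor known from B1 and memory B cells, stood at 13.1 CPM in HFD against 50.2 CPM in NCD, a log2 ratio of -1.85 (-3.17 to -0.92), and at -1.74 (-3.36 to -0.62) in the restricted B cells. Bhlhe41, a factor needed by B1 cells, had -1.83 and Cd9 -0.92, while Tox had 1.06 and Cd5, the B1a surface marker, 0.20. Itgam, which encodes CD11b, had 55 UMIs in NCD and 0 in HFD, a log2 ratio of -1.94 or lower, and -1.91 in barcodes with 0 Cd79a UMIs. In the restricted B cells 3 B1 genes could be compared and 1 was at least 2-fold lower. The summed B1 list was no mark of B cells here. In NCD it stood at 397 CPM in all B cells, 219 in those with 0 T cell UMIs and 694 in barcodes with 0 Cd79a UMIs. In HFD these were 389, 174 and 1090 CPM, and WT and KO had the same order. The part of T cell RNA in the B1 ratios was not tested.

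**Figure D4:**
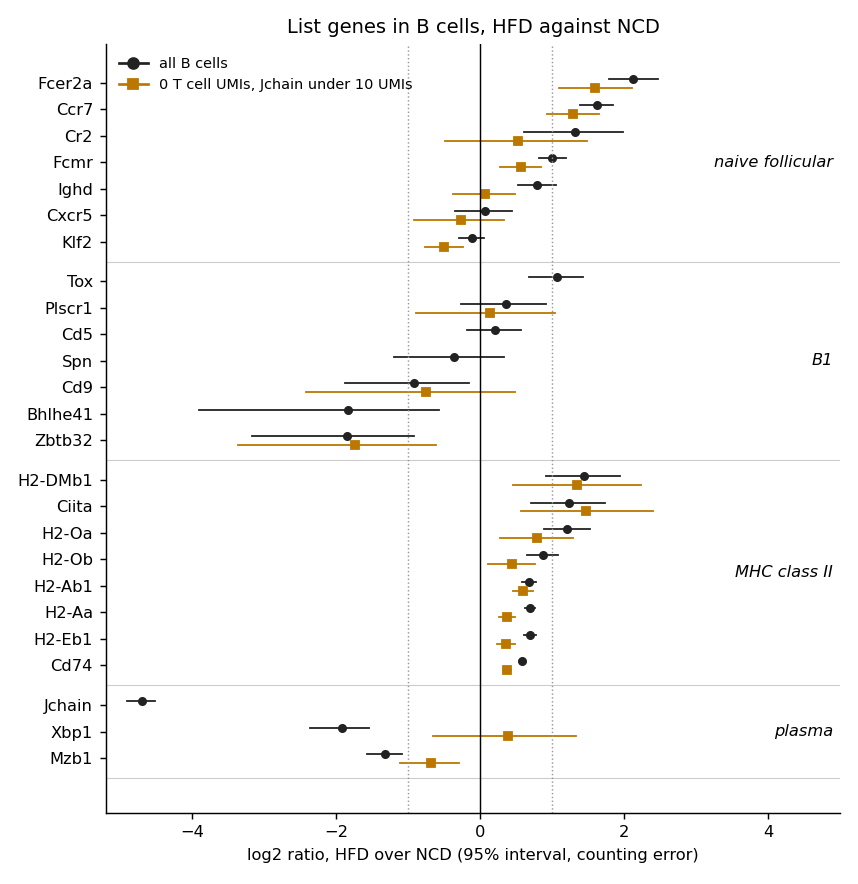
The horizontal axis is the log2 ratio of HFD over NCD with 95% counting intervals and the vertical axis lists genes by list; black circles are all B cells, orange squares the cells with 0 T cell UMIs and under 10 Jchain UMIs, and dotted lines mark 2-fold. Fcer2a, Ccr7, Ciita and H2-DMb1 stay above 1 in both sets, Zbtb32 stays below -1, and Xbp1 moves from -1.93 to 0.38.

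Some genes with large ratios in the diet comparison had like ratios in barcodes with 0 Cd79a UMIs. Satb1, a chromatin organiser active in lymphocytes, had a log2 ratio of 2.63 (2.22 to 3.04) in B cells, 1.94 in the restricted B cells and 2.79 in the other barcodes. Lmo2 had 2.18 and 1.98 in B cells and -0.15 in the others. Sh2d1a, Izumo1r and Ccr8, which T cells express, had 2.19, 1.94 and 2.03 in B cells and 2.70, 2.53 and 0.92 in the others, and they were near 0 UMIs in B cells with 0 T cell UMIs. At the low end, Areg and Klrg1, known from adipose Treg cells, had -2.07 and -2.51 in B cells and -2.35 and -2.92 in the others, and the Treg list was at least 2-fold lower for 6 and higher for 2 of 13 genes (6 and 1 relative to the median of all genes). The part of T cell RNA in these values was not tested. Sytl3 had 213 UMIs in NCD and 2 in HFD, 2 and 1 in B cells with 0 T cell UMIs, and a log2 ratio of -3.52 in the other barcodes. Among the other low genes, Prg2 had 452 UMIs in NCD and 2 in HFD, Derl3 178 and 1, Chst1 82 and 0, and Plekha3 55 and 0.

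For KO against WT, Srebf2 itself, the master activator of cholesterol synthesis (chromosome 15, 82147269 to 82205379), comes first as a check of the labels. In barcodes with 0 Cd79a UMIs, which are mostly Treg cells, Srebf2 stood at 4.10 CPM in KO against 65.5 CPM in WT, a log2 ratio of -3.99. In all B cells WT had 74.6 CPM (45 UMIs) and KO 25.9 CPM (11 UMIs), a log2 ratio of -1.48 (-2.63 to -0.55). In B cells with 0 T cell UMIs WT had 47.6 CPM (8 UMIs) and KO 41.2 CPM (7 UMIs), a log2 ratio of -0.20 (-1.90 to 1.45), and in B cells with 3 or more they had 92.9 and 17.4 CPM. The lower Srebf2 of KO was thus seen in the B cells with T cell RNA, and at 8 and 7 UMIs a difference was not detectable in those without.

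Apobec3, a cytidine deaminase that restricts retroviruses (chromosome 15, 79892058 to 79918218), had the lowest log2 ratio of KO over WT in B cells. It stood at 14.1 CPM (6 UMIs) in KO against 365 CPM (220 UMIs) in WT, a log2 ratio of -4.58 (-6.15 to -3.54). In B cells with 0 T cell UMIs WT had 333 CPM (56 UMIs) and KO 17.7 CPM (3 UMIs), a log2 ratio of -4.03 (-6.56 to -2.62), and in those with 3 or more they had 392 and 13.1 CPM. In barcodes with 0 Cd79a UMIs WT had 219 and KO 27.4 CPM, a log2 ratio of -3.0. B cells of the diet library had 382 CPM in HFD against 313 CPM in NCD, near the WT level. Apobec3 was therefore low in KO in B cells with and without T cell RNA. For Srebf2 the B cells without T cell RNA held too few UMIs to tell.

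**Figure D5:**
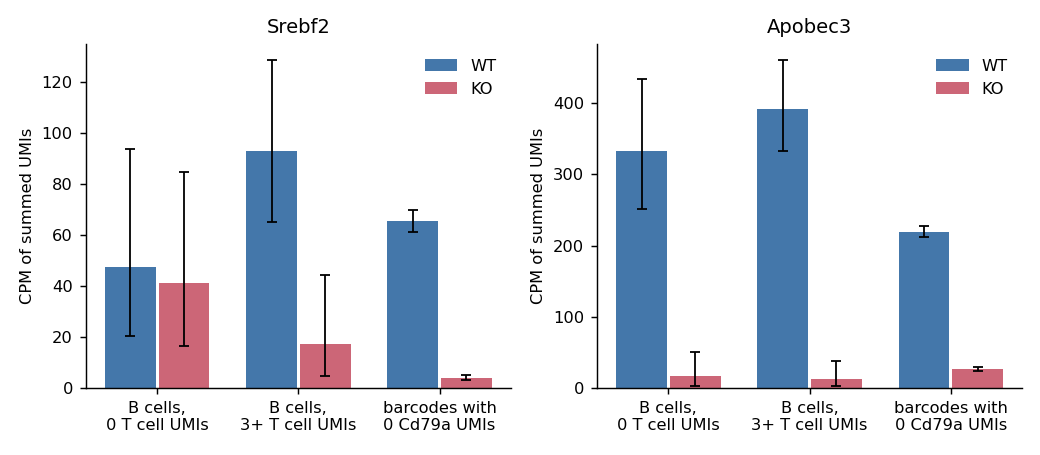
The vertical axes are CPM of summed UMIs, the horizontal axis 3 sets of barcodes, blue bars WT, red bars KO, with exact Poisson 95% intervals. Srebf2 is 47.6 and 41.2 CPM in B cells with 0 T cell UMIs and 65.5 and 4.10 CPM in barcodes with 0 Cd79a UMIs, while Apobec3 is far lower in KO in all 3 sets.

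Few other genes differed by 2-fold between KO and WT B cells. Of 3114 genes with 50 or more UMIs, 36 were at least 2-fold higher in KO, which is 1.16%, and 65 lower, 2.09%. For lists the background was 158 higher (2.52%) and 306 lower (4.89%) of 6260 genes, with a median log2 ratio of -0.09. In B cells with 0 T cell UMIs 39 of 844 genes were higher (4.62%) and 28 lower (3.32%). The background for lists in those cells was 139 higher (5.67%) and 131 lower (5.34%) of 2451 genes. Fcer2a stood at 80.1 CPM in KO against 246 CPM in WT, a log2 ratio of -1.60 (-2.20 to -1.07), and at -0.67 (-1.40 to 0.02) in B cells with 0 T cell UMIs. Farsb, a subunit of phenylalanyl-tRNA synthetase, had -2.07, and -2.49 in B cells with 0 T cell UMIs, against -0.07 in barcodes with 0 Cd79a UMIs. Socs2, Izumo1r and Maf were also among the lowest (-1.70, -1.45 and -1.37) and were near 0 UMIs in B cells with 0 T cell UMIs. Fcer2a was thus lower by less than 2-fold once cells with T cell RNA were left out, and Farsb was not.

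The highest gene in KO was 2010309G21Rik, at a log2 ratio of 1.55 (1.03 to 2.10) and 2.24 in B cells with 0 T cell UMIs. Zeb2, a repressor found in differentiated lymphocytes, had 1.12 and 1.71, and Sox5, known from atypical memory B cells, 1.05 and 1.61. Pnpla2 (1.26), Cacna1e (1.15), Rnase6 (1.10) and Rab30 (1.06) were also among the highest. These ratios rest on few UMIs, such as 24 in WT and 37 in KO for Zeb2.

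Most lists showed few genes past 2-fold. The 20 receptor complex genes, the 16 transcription factors and the 10 MHC class II genes had 0 higher and 0 lower, with medians of 0.14, -0.04 and -0.27. Among B cells with 0 T cell UMIs, 1 of 20 receptor complex genes was lower, Vpreb3 at -1.04 (-2.15 to -0.07), and 1 of 9 MHC class II genes, Ciita with 16 UMIs in WT and 4 in KO at -1.89 (-4.05 to -0.38), with a list median of -0.42, and 0 of 15 transcription factors. The 8 naive follicular genes had 1 lower, Fcer2a, and a median of -0.46. Without the cells holding T cell UMIs the 1 lower follicular gene was Ccr7, with 92 UMIs in WT and 35 in KO, a log2 ratio of -1.40 (-2.02 to -0.83), against -0.66 in all B cells, and the list median was -0.55. Of the homing genes 2 of 10 were lower there, Ccr7 and Cxcr4 (-1.44), against 0 of 11 in all B cells. Of the early response genes 2 of 7 were lower there, Nr4a1 (-2.06) and Tnfaip3 (-2.46), against 1 of 10 in all B cells, Egr1 (-2.30). Other lists had higher members in these cells: 2 of 13 dissociation and heat shock genes and 1 of 8 survival and co-stimulation receptors. So did 1 of 3 marginal zone, 1 of 2 atypical B cell and 2 of 5 plasma cell genes, the last with 1 lower. These counts rest on few genes, beside 5.67% higher and 5.34% lower over all genes compared there. Of the 6 cholesterol synthesis genes that could be compared, 1 was lower, with a median of -0.37. The gene was Sc5d, a sterol desaturase, at 24 UMIs in WT and 5 in KO, a log2 ratio of -1.65 (-3.50 to -0.34). Of the 6 sterol uptake and control genes 1 was lower, Srebf2 itself. Of the 6 B1 genes 1 was higher, Zbtb32, with 10 UMIs in WT and 25 in KO, a log2 ratio of 1.79 (0.72 to 3.05), and 1 was lower, Tox at -1.04 (-1.79 to -0.37). Of 7 plasma cell genes 4 were higher (Xbp1, Mzb1, Derl3 and Txndc5), with a median of 1.05, and 0 of 4 without the 4 cells of 10 or more Jchain UMIs.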

How the data were processed

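Sequencing libraries of sorted visceral adipose Treg cells were analysed, each a 10x 5′ gene expression matrix with a matched hashtag matrix. The deposited values are UMI counts per gene and barcode, made by the authors with Cell Ranger 7.1.0 for the Srebf2 library and 7.0.1 for the diet library, per the file headers. The submitters' processing notes name Cell Ranger 7.0.1 and build mm10. All values are whole numbers.

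From these counts, barcodes were filtered and given to a condition by hashtag, and B cells were chosen by the rule in the text. The members and gene lists were chosen with earlier results of these data known. UMIs were summed over the B cells of a condition, 602848 and 424358 for WT and KO and 2907347 and 609444 for NCD and HFD, and given as CPM with exact Poisson intervals. Log2 ratios had 0.5 counts added, with an exact interval from splitting the 2 counts. Shares have exact Clopper-Pearson 95% intervals. UMIs are molecules, so these intervals cover counting error only. Where all cells of a condition were at 0, the bound used 3 counts over the condition. Named genes were, at each end of the log2 ratios, the 10 most extreme of the genes with 50 or more UMIs in which no cell held over 20% (receptor, mitochondrial and ribosomal genes left out), list members farthest from 0, the 20 highest genes of B cells over other barcodes, and a fixed set of markers. Ighv11-2 and Ighv12-3 were named after their values were seen. List members needed 20 UMIs. A macrophage barcode had at least 3 macrophage markers. Alternatives changed the filters, the rule, the scaling and the added count. The interval code was tested on simulated data. Work was done in Python 3.11.15 with numpy 2.4.6, scipy 1.17.1, pandas 2.3.3 and matplotlib 3.10.9. Barcodes with mixed hashtags entered no comparison. A few genes that the rule names are not reported here.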

Additional observations from a re-analysis of the deposited data

Results flagged for a closer look

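Barcodes with mixed hashtags, which the comparisons leave out, met the B cell rule in a higher share than barcodes with 1 hashtag, with overlapping intervals in the diet library. In the Srebf2 library 29 of 810 mixed barcodes met it, 3.58% (2.41 to 5.10), against 151 of 7785, 1.94% (1.64 to 2.27). In the diet library 48 of 801 met it, 5.99% (4.45 to 7.87), against 438 of 10325, 4.24% (3.86 to 4.65). Cd3e had a UMI in 82.8% and 68.8% of these mixed B cell barcodes, against 47.7% and 56.6% of the B cells with 1 hashtag. Barcodes with 3 or more T cell UMIs were 79.3% (60.3 to 92.0) and 72.9% (58.2 to 84.7) of the mixed ones, against 49.7% and 58.2% of the B cells with 1 hashtag, and 82.2% and 89.7% of mixed barcodes with 0 Cd79a UMIs. Mixed barcodes hold the tags of both conditions of a library, and the difference was not tested.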

How the results depend on the processing

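No paired analysis was possible because each condition is 1 pool of mice and no test was run. Counted once per alternative, 205 of the main values stayed within their spread or within 1.5 times and 23 moved. Of the other values, which were ratios of named genes, list medians and Foxp3 shares, 893 stayed and 53 moved. None of the counted ratios or medians at 2-fold or more reversed its sign. List genes outside the named ones were not counted, and neither were the restricted B cells, where Xbp1 went from -1.93 to 0.38. In B cells with 0 T cell UMIs the shares were 1.03% and 0.706% for WT and KO and 1.94% and 1.31% for NCD and HFD, the genes lower by 2-fold numbered 28 for KO against WT and 118 for HFD against NCD, the log2 ratios of KO over WT were -0.67 for Fcer2a and -0.20 for Srebf2, either B1 receptor segment led in 8.74% of NCD cells, and HFD had 0% with 10 or more Jchain UMIs. It also had 0% at 95% hashtag purity. With genes at 20 UMIs, 158 were higher and 306 lower for KO against WT, and 584 and 563 for HFD against NCD. Scaling by the median ratio left 151 genes higher in HFD. One draw of 2000 UMIs per cell gave Cd3e in 29.3% of WT, 35.7% of NCD and 32.5% of HFD B cells. After seeing the data, leaving out cells with 10 or more Jchain UMIs gave 152 genes higher in HFD, a Fcer2a log2 ratio of 1.77 and 10.9% of NCD cells led by either segment. Leaving out the cells led by either segment left 5.90% of NCD cells with 10 or more Jchain UMIs. Ratios with both conditions at 3 or fewer UMIs could give no value. Depth limits KO against WT most, where B cells with 0 T cell UMIs numbered 38 and 29.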

Other observations

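Early response genes, which antigen receptor signals and tissue handling both induce, gave other ratios once B cells with T cell RNA were left out. In all B cells of HFD against NCD, 3 of 12 were at least 2-fold higher and 1 lower, with a median log2 ratio of 0.04. Leaving out only cells with 10 or more Jchain UMIs kept 3 of 12 higher and 1 lower, with a median of -0.11. Leaving out only cells with T cell UMIs gave 4 of 8 higher and 0 lower, with a median of 1.02. In B cells with 0 T cell UMIs and under 10 Jchain UMIs, 4 of the 6 that could be compared were higher and 0 lower, with a median of 1.30. Nr4a1, a receptor-induced nuclear receptor, had -0.68 (-0.92 to -0.46) in all B cells and 2.74 (1.98 to 3.62) in the latter, where it stood at 265 CPM in HFD against 39.0 CPM in NCD. Cd69, an activation marker that retains lymphocytes in tissue, had 0.31 and 1.48 (1.06 to 1.90), and Nfkbid had -0.04 and 1.19. The dissociation and heat shock list, whose genes respond to tissue digestion, moved with them: 0 of 16 were higher and 3 lower in all B cells, and 5 of 13 were higher and 0 lower in the latter. That list kept 0 of 16 higher and 3 lower when only the Jchain-rich cells were left out. It had 6 of 14 higher and 0 lower when only cells with T cell UMIs were left out. The part of tissue handling in these values was not tested.

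Other members also differed between the diets. Cxcr4, a chemokine receptor for bone marrow and tissue retention, had 1.42 (1.06 to 1.77) in all B cells and 1.91 (1.08 to 2.80) in those with 0 T cell UMIs and under 10 Jchain UMIs. Itga4, an integrin chain, had -0.15 and -0.92 (-1.48 to -0.42). Of 11 interferon response genes 4 were higher (3 relative to the median of all genes) and 0 lower in all B cells, with a median of 0.69, and 2 of 5 in the latter.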
